A study of Mus musculus with 12 samples.

Results

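The genes described here are 9 markers of microglia, the resident macrophages of the brain: Cx3cr1, P2ry12, Csf1r, Trem2, Tmem119, Aif1, C1qa, C1qb and C1qc. They were chosen by name, as established markers, out of 21887 protein-coding genes of a RefSeq gene table (GRCm38.p6), and every called peak inside each gene or within 10 kb of its ends was collected. The series holds 12 mouse libraries, of which 2 are used here, both from chromatin immunoprecipitation and sequencing (ChIP-seq) with PTM BIO antibody PTM-501. This pan-Kcr antibody binds crotonylated lysine in any protein, histones included. Both libraries came from dorsal hippocampus of C57BL/6J mice. The animals of the learning library had been trained on object positions (the spatial object recognition task), and those of the homecage library had stayed in the home cage. Sex, age and whether tissue of several animals was pooled are not given for these libraries, and no step that enriches microglia is described. Each condition has 1 library, so nothing that differs between them was checked against replicates, and no p-value is given.

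Microglia survey brain tissue with motile processes, clear debris and take part in the removal of synapses. Their survival depends on signals through the CSF1 receptor, and their contact with neurons on receptors for chemokine and nucleotide signals. Lysine crotonylation is an acylation that on histones is mostly found at active promoters and enhancers. Unsorted hippocampus is a mixture in which neurons, astrocytes and oligodendrocytes are present beside microglia. A peak at a microglia gene therefore does not show in which cells the mark lies, and the number of microglia and the amount of mark per cell cannot be told apart.

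The homecage list was far longer than the learning list, with 331236 against 16002 peaks on the assembled chromosomes, and the depth of either library is unknown. Median peak width was 351 bp in the homecage list and 306 bp in the learning list. The files give position and width alone, with no strength for any peak. The gene table gives no exons, so that a peak inside a gene was not placed in an exon, an intron or a UTR.

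All 9 microglia genes had a homecage peak in the gene or within 10 kb, and 2 of them, Cx3cr1 and Aif1, had a learning peak. The homecage count, 9 of 9 (95% exact Clopper-Pearson interval 66.4 to 100%), stood beside 93.8% of all protein-coding genes, so it was near the background. The learning count, 2 of 9 (22.2%, interval 2.81 to 60.0%), stood beside 35.4% of all protein-coding genes. Among the 13311 protein-coding genes whose windows were between 22.9 and 66.7 kb long, as those of the members were, the shares were 94.6% for homecage and 31.7% for learning. The interval of the learning share held both background values. Since all 9 had a homecage peak, no member could have a learning peak alone. A homecage peak alone was found at 7 of 9, against 62.9% of genes of that window length.

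Because the windows of the 3 C1q genes run into each other, the 9 windows merge into 7 loci of 268 kb. These loci held 3 learning peaks and 37 homecage peaks. In the learning list this was 1.12 peaks per 100 kb (exact Poisson interval 0.231 to 3.27, counting error only), compared with 0.770 over the windows of all protein-coding genes. At that density of all windows, 2.07 learning peaks would fall in 268 kb. In the homecage list it was 13.8 peaks per 100 kb (9.71 to 19.0), compared with 13.4 over all windows. Both intervals held the value of all windows.

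**Figure D1:**
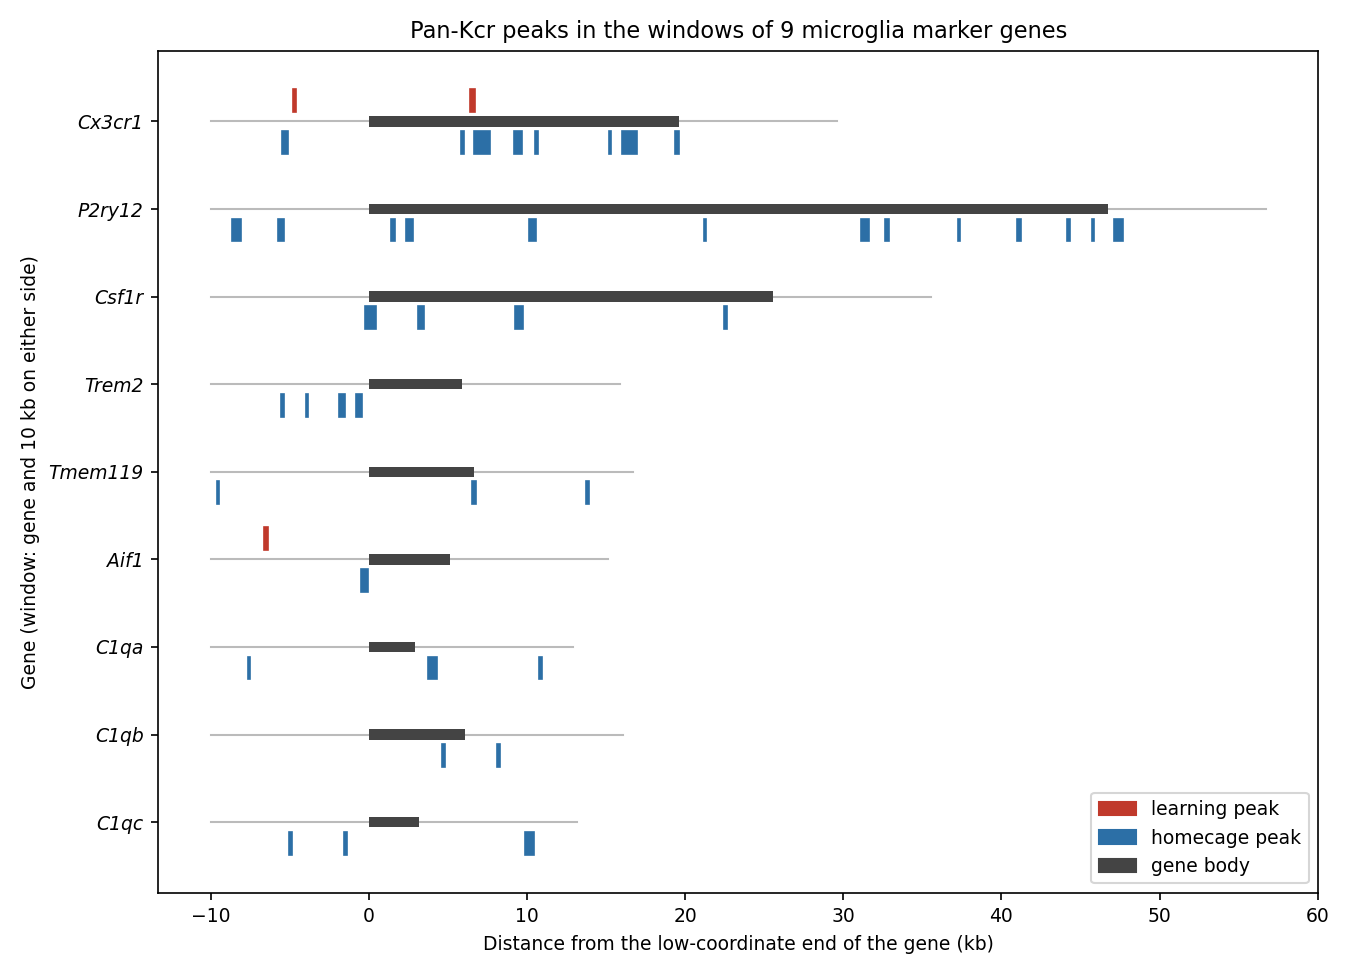
Each row is 1 gene drawn from its low-coordinate end (distance in kb), with the gene body as a dark bar, its window as a thin line, learning peaks above in red and homecage peaks below in blue, at their true width apart from a thin outline. Learning peaks appear in the rows of Cx3cr1 and Aif1 alone, and homecage peaks are most frequent at Cx3cr1 and P2ry12. Peaks of the C1q genes recur in neighbouring rows because the windows overlap.

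Among the receptors, Cx3cr1 carried the most learning peaks. Cx3cr1 (gene ID 13051, chromosome 9, 120048683 to 120068296, minus strand) encodes the receptor for fractalkine, a chemokine made by neurons. A learning peak of 280 bp lay inside the gene (120055092 to 120055371), 12925 bp from its annotated start. It overlapped a homecage peak of 963 bp (120055345 to 120056307) by 27 bp, which is 9.64% of the learning peak. The other learning peak, of 188 bp (120043866 to 120044053), lay 4629 bp beyond the 3' end, and 308 bp separated it from a homecage peak of 363 bp. Both learning peaks were thus next to homecage peaks, and their overlap with them was slight or nil.

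The homecage list had 8 peaks in the Cx3cr1 window, 7 of them inside the gene and 1 downstream. Their widths ran from 147 to 965 bp. The 2 widest, of 963 and 965 bp, were wider than 96.5% of all homecage peaks. A homecage peak of 199 bp (120068061 to 120068259) ended 37 bp inside the annotated start. A long noncoding RNA gene, Gm33858, overlaps this part of Cx3cr1, and 3 of the 8 peaks lay in both genes, so they cannot be assigned to either. In peaks per 100 kb, Cx3cr1 stood at 5.05 for learning and 20.2 for homecage, the highest of the 9 members in each list. Of the genes of similar window length, 5.03% had a learning density as high or higher, and 19.1% a homecage density as high or higher.

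P2ry12 had many homecage peaks and no learning peak. P2ry12 (gene ID 70839, chromosome 3, 59216271 to 59262985, minus strand) encodes the receptor by which microglial processes sense ADP released from injured cells. Its window held 13 homecage peaks from 147 to 557 bp wide, 10 of them inside the gene. The widest, 557 bp (59263403 to 59263959), lay 418 bp upstream of the annotated start. The nearest learning peak was 142 kb away, and 82.1% of protein-coding genes had one nearer. The whole window lies inside Med12l, a Mediator subunit gene on the opposite strand, so all 13 peaks are in Med12l as well. Med12l had 37 homecage peaks and 1 learning peak over its body. The 2 peaks downstream of P2ry12 also overlap P2ry13 (1 of them, of 550 bp, with 286 bp outside it), which encodes another ADP receptor of microglia.

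Csf1r (gene ID 12978, chromosome 18, 61105572 to 61131139) encodes the receptor for CSF1 and IL-34, on which microglia depend for survival. It had 4 homecage peaks, all touching the gene body, and no learning peak. The widest, 715 bp (61105313 to 61106027), crossed the low-coordinate end of the gene and was wider than 90.5% of homecage peaks. The others measured 440, 509 and 197 bp. The nearest learning peak lay 22.0 kb from the gene, closer than at any member other than Cx3cr1 and Aif1. The neighbouring gene Hmgxb3, whose end falls in the window, shared none of these peaks. At 8.78 peaks per 100 kb, the homecage density was below that of chromosome 18 (12.97).

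Trem2 (gene ID 83433, chromosome 17, 48346401 to 48352276, plus strand) encodes a lipid-sensing receptor that signals through the adaptor TYROBP. All 4 homecage peaks of its window lay upstream, at 429, 1532, 3836 and 5389 bp from the annotated start, with widths of 410, 353, 147 and 199 bp. None lay in the gene body. From the peak nearest the start, no homecage peak followed for 35.3 kb, across Trem2 and the nearby Treml1. That stretch was longer than 99.1% of the distances between neighbouring homecage peaks, whose median was 4663 bp. A stretch picked because it spans a gene is longer on average than a random distance. The nearest learning peak was 448 kb away, the farthest of the 9 members, and 94.0% of protein-coding genes had one nearer.

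Tmem119 (gene ID 231633, chromosome 5, 113793729 to 113800396) encodes a membrane protein that is widely used to tell microglia from other macrophages. Its window held 3 homecage peaks, of 147, 206 and 201 bp, all narrower than the median of the homecage list. The 206 bp peak (113800275 to 113800480) crossed the high-coordinate end of the gene, and the others lay 9465 and 7045 bp outside it. No learning peak was found within 62.2 kb.

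Aif1 (gene ID 11629, chromosome 17, 35170986 to 35176083, minus strand) encodes IBA1, a calcium-binding protein of the actin cytoskeleton and the usual antibody stain for microglia. It was the member with the fewest homecage peaks. Its only homecage peak, of 427 bp (35170495 to 35170921), lay 64 bp beyond the 3' end of the gene. Its learning peak, of 286 bp (35164326 to 35164611), lay 6374 bp beyond that end and inside Prrc2a, the neighbouring gene, 710 bp from the annotated start of Prrc2a. Prrc2a had no homecage peak in its body, and 5883 bp separated the learning peak from the nearest homecage peak. Both peaks were on the 3' side of Aif1, but at different places. The homecage density, 3.98 peaks per 100 kb, was the lowest of the 9 and below that of chromosome 17 (13.8). Of the genes of similar window length, 91.3% had a homecage density as high or higher. This value depends on the window edge, since the next homecage peak began 75 bp past it, and Aif1 lay in a stretch of 15.2 kb without a homecage peak (longer than 89.0% of the distances between neighbouring homecage peaks). Lst1, at the edge of the window, had no learning peak and 2 homecage peaks in its body.

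The C1q genes encode the chains of C1q, the recognition protein of the classical complement pathway, which microglia secrete and which tags synapses for removal. C1qb (gene ID 12260, 136880126 to 136886200, minus strand), C1qc (gene ID 12262, 136889801 to 136892936, minus strand) and C1qa (gene ID 12259, 136895916 to 136898844) follow each other on chromosome 4. The merged locus of 38.7 kb held 4 homecage peaks and no learning peak. Only 1 of the 4, of 153 bp (136884767 to 136884919), lay inside a C1q gene, C1qb. A peak of 147 bp (136888250 to 136888396) lay between C1qb and C1qc. The widest, 554 bp (136899658 to 136900211), lay 813 bp beyond the high-coordinate end of C1qa, and 1 of 199 bp lay 7798 bp beyond it. Between the 147 bp and the 554 bp peaks, a stretch of 11.3 kb that holds C1qc and C1qa had no homecage peak. It was longer than 80.9% of the distances between neighbouring homecage peaks. The density of the locus, 10.3 homecage peaks per 100 kb, was below that of chromosome 4 (14.0). The nearest learning peak lay 124 kb from C1qb, 134 kb from C1qc and 140 kb from C1qa.

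**Figure D2:**
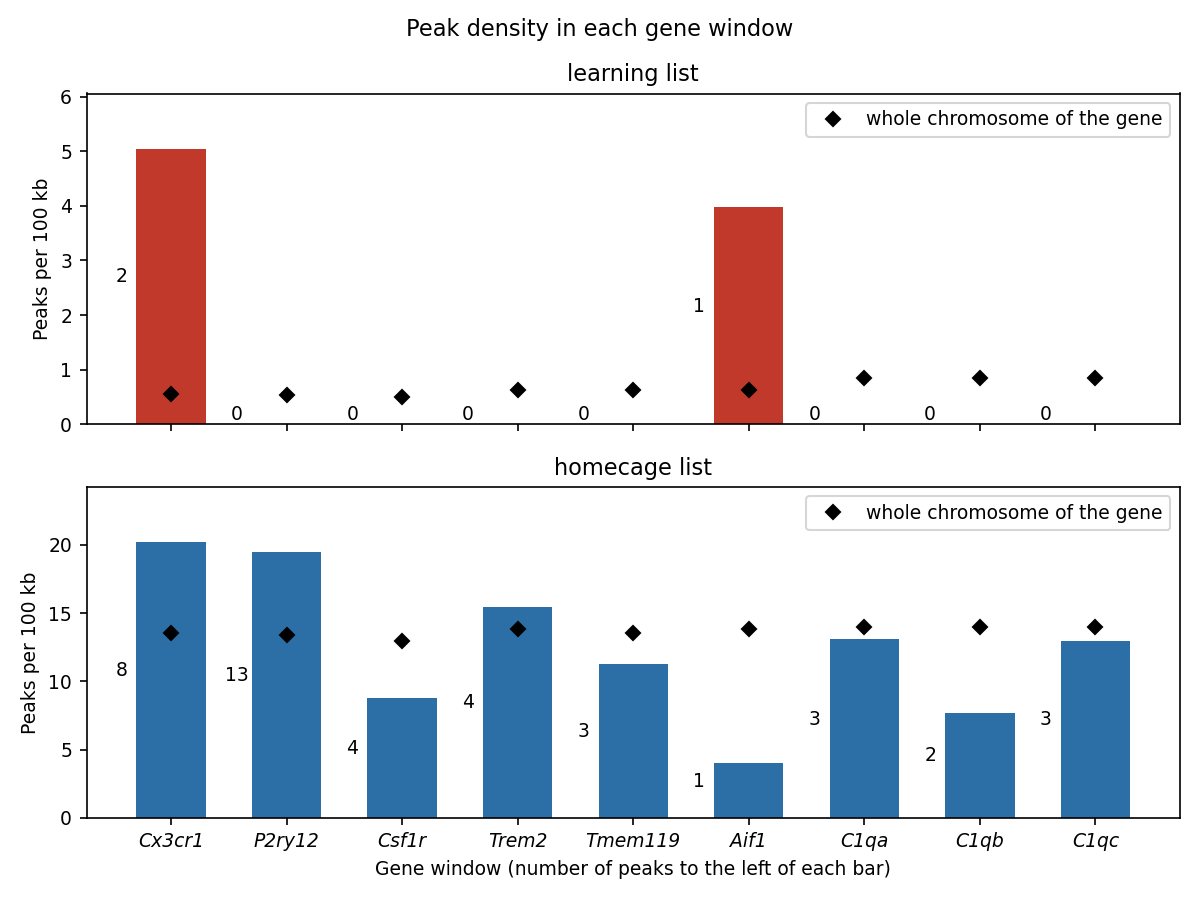
Bars show peaks per 100 kb in the window of each gene, in the learning list (top) and the homecage list (bottom), with the number of peaks to the left of each bar and diamonds for the density of the whole chromosome. In the learning list 2 bars are above 0, at 5.05 and 3.98, each resting on 2 peaks or 1. In the homecage list the bars run from 3.98 at Aif1 to 20.2 at Cx3cr1, on both sides of the diamonds.

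Set in order, homecage density ran from Cx3cr1 (20.2 peaks per 100 kb) and P2ry12 (19.5) through Trem2 (15.5), C1qa (13.1), C1qc (12.97), Tmem119 (11.2), Csf1r (8.78) and C1qb (7.67) to Aif1 (3.98). Each value rests on 1 to 13 peaks of 1 library, so the order of neighbours is not resolved. Of the members, 6 were below the median of genes of similar window length, 13.7 peaks per 100 kb. Cx3cr1 and P2ry12 together held 21 of the 37 homecage peaks. Gene bodies were hit at 5 of 9 members in the homecage list (interval 21.2 to 86.3%; 81.4% of genes of similar window length, 76.9% of all). In the learning list it was 1 of 9, Cx3cr1 (0.281 to 48.2%; 19.6% and 24.8%). The members' bodies were shorter, with a median of 6.08 kb against 14.7 kb for genes in that range of window length.

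Distances from the microglia genes to learning peaks varied widely. The median distance from the gene to the nearest learning peak was 124 kb, compared with 31.2 kb over all protein-coding genes and 33.4 kb over those of similar window length. Of the 9 genes, 6 were farther than the median of all genes, and the 3 nearer ones were Cx3cr1, Aif1 and Csf1r. The 3 C1q genes share 1 locus and the same nearest learning peak, so these 9 distances are not independent. Counted by merged locus, 4 of 7 were farther than the median of all genes, and the median distance was 62.2 kb.

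Of the 3 learning peaks at the microglia genes, 1 overlapped a homecage peak. Over the whole learning list, 43.1% of peaks did so, and 47.4% of those in windows of protein-coding genes. Of the 37 homecage peaks, 1 overlapped a learning peak, against 2.05% over the whole homecage list and 2.69% in windows of protein-coding genes. With 3 learning peaks, the shared fraction has little precision.

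Widths of the peaks at the microglia genes were set beside those of each list, and the homecage peaks ran from 147 to 965 bp. The 3 learning peaks, of 188, 280 and 286 bp, were all below the median of their list. The homecage peaks had a median of 240 bp, 21 of 37 were below the median of the list, and 7 reached 500 bp (18.9%, compared with 24.8% of the list). A width of 147 bp, the smallest in the homecage list, was shared by 6 of the 37 peaks and by 10.4% of the list. Learning peaks covered 0.281% of the merged windows and homecage peaks 4.72%.

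**Figure D3:**
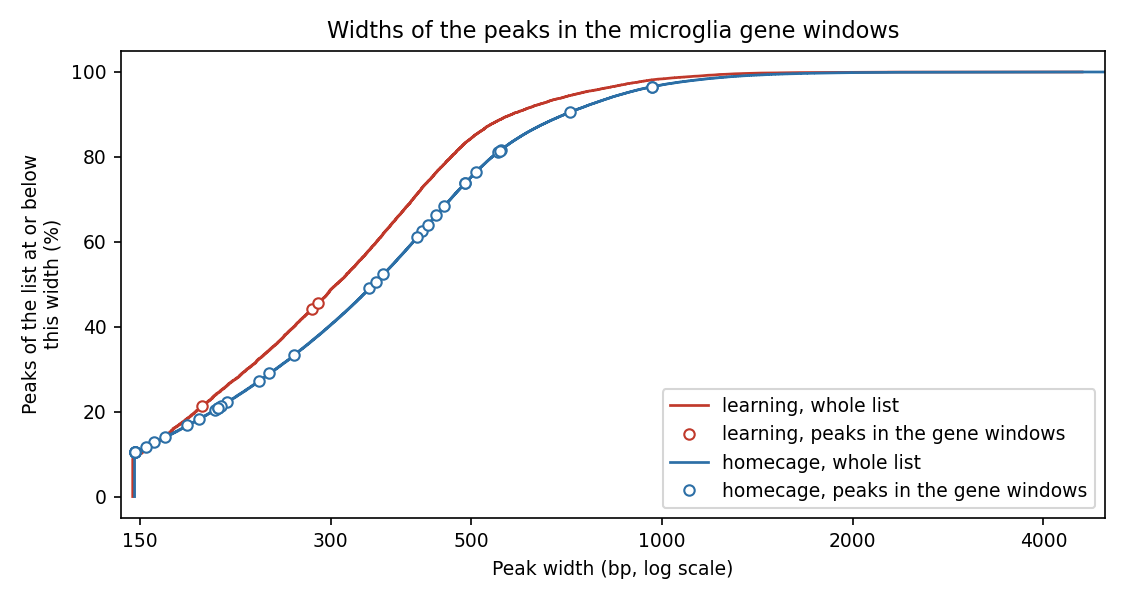
Lines show the share of peaks (percent) at or below each width (bp, log scale) in the whole learning list (red) and homecage list (blue), and open circles mark the peaks in the microglia gene windows on the line of their list. The 3 learning circles lie between 188 and 286 bp, and the homecage circles run from 147 to 965 bp.

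At gene starts, each list was again set beside its own background. No member had a learning peak within 1 kb of the start (0 of 9, which allows up to 33.6%), and 14.6% of all protein-coding genes had one. A homecage peak lay there in 6 of 9 (66.7%, interval 29.9 to 92.5%), against 50.6% of all protein-coding genes. The intervals held both background shares. With the homecage list reduced to its 16002 widest peaks, as many as in the learning list, the homecage count was 0 of 9. That reduced list holds only peaks of at least 884 bp, whereas the learning list keeps all widths. The share of all genes was not computed for it, so this 0 has no background beside it. The table gives the strand for 6 members, and of these Cx3cr1, P2ry12 and Trem2 had a homecage peak within 1 kb of the start, while Aif1, C1qb and C1qc had none. Over all protein-coding genes with a strand, 48.3% had a homecage peak there and 14.4% a learning peak. For Csf1r, Tmem119 and C1qa, without a strand, a peak within 1 kb of either end was counted, and all 3 had one. With both ends counted, such a gene has more room for a peak. The 50.6% of all genes used the same rule, but 17492 of those 21887 genes had a strand, a larger part than 6 of 9. The count of 6 of 9 is therefore not fully matched to that share.

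The promoters of the 6 members with an entry in the RefSeq promoter table (GRCm38.p6) are shown because 3 of these starts (Cx3cr1, P2ry12 and Trem2) had a homecage peak within 1 kb and 3 did not. Each line gives the 250 bases before the start, 5' to 3' on the strand of the gene. Capitals mark matches, on either strand, of GGAAGT or GAGGAA. These letters fit the core bound by ETS factors, among them PU.1, the factor that sets up the macrophage and microglia lineage. The 2 motifs can overlap each other. The promoter table places the starts of Aif1 and C1qc 31 and 22 bp inside the gene ends used above.
Cx3cr1 (chr9:120068297-120068546, minus strand): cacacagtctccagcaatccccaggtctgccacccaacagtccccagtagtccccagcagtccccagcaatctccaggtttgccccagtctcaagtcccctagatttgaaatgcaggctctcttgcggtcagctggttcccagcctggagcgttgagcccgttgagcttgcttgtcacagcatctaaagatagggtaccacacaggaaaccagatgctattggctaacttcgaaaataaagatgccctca
P2ry12 (chr3:59262986-59263235, minus strand): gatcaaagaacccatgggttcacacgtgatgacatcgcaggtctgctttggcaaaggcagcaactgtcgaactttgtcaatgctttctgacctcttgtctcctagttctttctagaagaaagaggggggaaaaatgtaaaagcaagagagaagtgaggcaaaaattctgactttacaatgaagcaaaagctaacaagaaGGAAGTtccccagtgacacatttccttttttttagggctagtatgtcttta
Trem2 (chr17:48346151-48346400, plus strand): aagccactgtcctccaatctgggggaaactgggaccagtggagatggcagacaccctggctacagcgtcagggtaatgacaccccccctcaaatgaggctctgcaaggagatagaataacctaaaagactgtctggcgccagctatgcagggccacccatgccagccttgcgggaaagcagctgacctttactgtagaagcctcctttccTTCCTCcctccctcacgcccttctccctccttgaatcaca
Aif1 (chr17:35176053-35176302, minus strand): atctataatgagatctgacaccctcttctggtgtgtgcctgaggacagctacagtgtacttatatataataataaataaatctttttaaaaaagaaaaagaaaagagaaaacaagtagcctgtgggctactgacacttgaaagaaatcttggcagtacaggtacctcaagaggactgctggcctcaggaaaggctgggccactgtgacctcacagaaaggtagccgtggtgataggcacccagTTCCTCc
C1qb (chr4:136886201-136886450, minus strand): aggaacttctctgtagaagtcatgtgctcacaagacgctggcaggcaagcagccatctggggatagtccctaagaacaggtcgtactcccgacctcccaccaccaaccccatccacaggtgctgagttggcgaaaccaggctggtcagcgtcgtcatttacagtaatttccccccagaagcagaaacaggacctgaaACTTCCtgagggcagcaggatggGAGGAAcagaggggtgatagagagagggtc
C1qc (chr4:136892915-136893164, minus strand): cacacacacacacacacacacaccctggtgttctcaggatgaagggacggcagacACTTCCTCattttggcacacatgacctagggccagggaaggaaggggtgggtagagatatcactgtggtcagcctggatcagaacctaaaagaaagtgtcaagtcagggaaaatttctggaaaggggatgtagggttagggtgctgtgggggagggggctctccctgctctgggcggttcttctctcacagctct

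GGAAGT was present in 3 of the 6 (P2ry12, C1qb and C1qc) and in 20.5% of the 17492 protein-coding promoters of the same length. GAGGAA was present in 4 of the 6 (Trem2, Aif1, C1qb and C1qc) and in 22.1% of those promoters. Cx3cr1 had neither. The matches did not separate the 3 promoters with a homecage peak within 1 kb from the 3 without. No peak of either list touched these 250-base stretches. The homecage peak at the Cx3cr1 start covered 13 bases of its promoter entry, gagactgggtgag, from base 38 to base 50 after the start.

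The 6 promoters shared a low content of CG dinucleotides, the pair at which DNA methylation occurs and which is dense in CpG islands. In the entry of 300 bases, C1qb had 6, Cx3cr1 and Trem2 5 each, P2ry12 4, C1qc 3 and Aif1 1. The median over 17492 protein-coding promoters was 13 (25th to 75th percentile 4 to 24), and 35.6% had 6 or fewer. In both lists, genes with few CG had peaks at the start less often. Of the 6230 genes with at most 6 CG, 3.43% had a learning peak within 1 kb of the start, compared with 20.5% of the 11262 genes with more. The homecage shares were 31.7% and 57.5%. Beside these shares, the 6 members with a known strand had 0 learning and 3 homecage starts with a peak. The part of CG content in the members' counts was not tested.

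**Figure D4:**
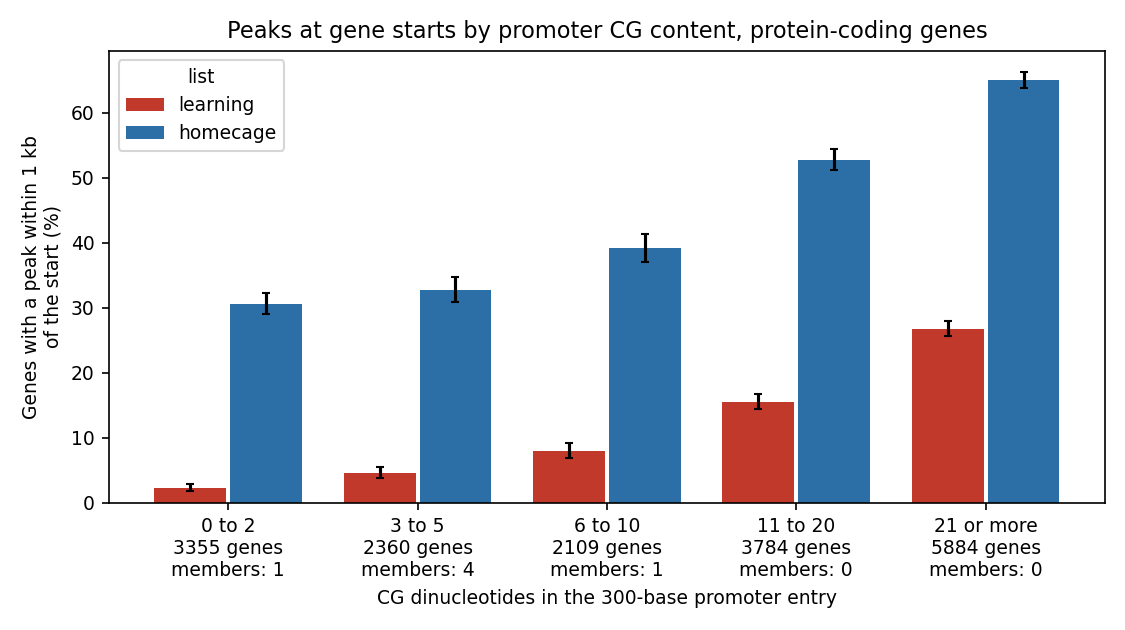
Bars show the percent of protein-coding genes with a peak within 1 kb of the start, by the number of CG dinucleotides in the 300-base promoter entry, for the learning list (red) and the homecage list (blue), with 95% exact intervals that treat genes as independent. Shares rose with CG number in both lists, from 2.27 to 26.8% and from 30.6 to 65.0%, and the 6 microglia genes fall in the 3 classes with the fewest.

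Further genes of microglia were counted in the same way. P2ry13 is among them, and the 4 homecage peaks of its window also lie in the window of P2ry12, so the lists are not fully separate. In a list of 20 further microglia genes, 3 had a learning peak in the gene or within 10 kb (15%, interval 3.21 to 37.9%, which holds the 35.4% of all genes) and 18 had a homecage peak (90.0%, beside 93.8%). Per 100 kb, these windows held 0.649 learning peaks, compared with 0.770 over all windows and 1.12 at the members. The 3 genes were Lgmn, a lysosomal protease (534 bp, inside the gene, over a 915 bp homecage peak), Cst3, the protease inhibitor cystatin C (448 bp, inside, over a 1278 bp homecage peak), and Cd68, a lysosomal membrane protein. Cd68 had 3 learning peaks in its window, the widest (339 bp) 7115 bp outside the gene and the nearest 940 bp from it. The widest homecage peaks of that list lay in Lgmn (1470 bp) and Ptprc, the CD45 phosphatase gene (1419 bp). A homecage peak lay within 1 kb of the start at 5 of 20 (25%, interval 8.66 to 49.1%), below the 50.6% of all genes. The 9 members stood at 66.7%, with an interval (29.9 to 92.5%) that holds the 50.6%, and 3 of them, without a strand, were counted at either end. The interval of the 20 genes also held 31.7%, the share among genes with a strand and at most 6 CG. The CG content of these 20 genes was not tested, so that share is not a matched background for them.

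Signalling partners of the members had a learning peak at 9 of 23 (39.1%, interval 19.7 to 61.5%) and a homecage peak at 23 of 23, beside 35.4 and 93.8% of all protein-coding genes. Their windows were longer, with a median of 55.4 kb against 37.2 kb for all genes, and held 0.655 learning peaks per 100 kb, compared with 0.770 over all windows. The widest learning peaks were at Tgfbr1, a TGF-beta receptor gene (549 bp, inside), C3, a complement component downstream of C1q (472 bp, 3238 bp outside), Tgfb1 (372 bp, inside) and P2rx7, an ATP-gated channel (360 bp, inside). Those at Tgfbr1, C3 and Tgfb1 overlapped homecage peaks of 594, 418 and 720 bp. Cx3cl1, which encodes the ligand of CX3CR1, had the widest homecage peak of the list (1548 bp, across a gene end). Transcription factors of microglia had a learning peak at 6 of 12 (50%, interval 21.1 to 78.9%, which holds the 35.4% of all genes). A homecage peak lay at 12 of 12, beside 93.8%. Their windows (median 38.6 kb) held 1.22 learning peaks per 100 kb, compared with 0.770 over all windows. Smad3 alone had 5 of the 12 learning peaks of this list. The windows of Smad3, Mef2a and Mef2c were far longer than the median, at 131229, 165294 and 183063 bp. The widest learning peaks were at Mef2a (1862 bp), Mef2c (526 bp) and Smad3 (413 bp), all inside the genes, and those at Mef2a and Smad3 overlapped homecage peaks of 1283 and 1475 bp. Mef2a, Mef2c and Smad3 are also used in neurons or other brain cells. Cebpa, with a shorter window of 22636 bp, had 2 learning peaks, the wider (399 bp) 7192 bp outside the gene. Within 1 kb of the start, a learning peak lay at 3 of 12 transcription factors (25%, interval 5.49 to 57.2%), Cebpa and Smad3 among them. That interval holds the 14.6% of all protein-coding genes.

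Markers of other cells in the tissue gave learning counts on both sides of the microglia count. A learning peak was found at 1 of 9 genes of border macrophages and monocytes (F13a1, 181 bp), 3 of 9 astrocyte genes (Gfap, Aldh1l1 and Aldoc), 4 of 9 oligodendrocyte genes (Mbp, Mag, Cnp and Olig1) and 5 of 9 neuronal genes. Of all protein-coding genes, 35.4% had one. The neuronal windows were longer, with a median of 82.8 kb against 26.1 kb for the microglia markers, and a longer window has more room for a peak. Per 100 kb, the learning densities were 0.188 for macrophage, 0.600 for astrocyte, 1.12 for microglia, 2.01 for oligodendrocyte and 1.00 for neuronal genes. The homecage densities were 13.5, 13.4, 13.8, 19.4 and 15.5. Over the windows of all protein-coding genes, the densities were 0.770 for learning and 13.4 for homecage. At the starts, a learning peak was present at 0 of 9 microglia, 0 of 9 macrophage, 1 of 9 astrocyte, 1 of 9 oligodendrocyte and 0 of 9 neuronal genes, beside 14.6% of all genes. The homecage counts there, in the same order, were 6, 3, 5, 5 and 6 of 9, beside 50.6%. The intervals of all these shares overlap, and none of the lists is shown to differ from another.

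**Figure D5:**
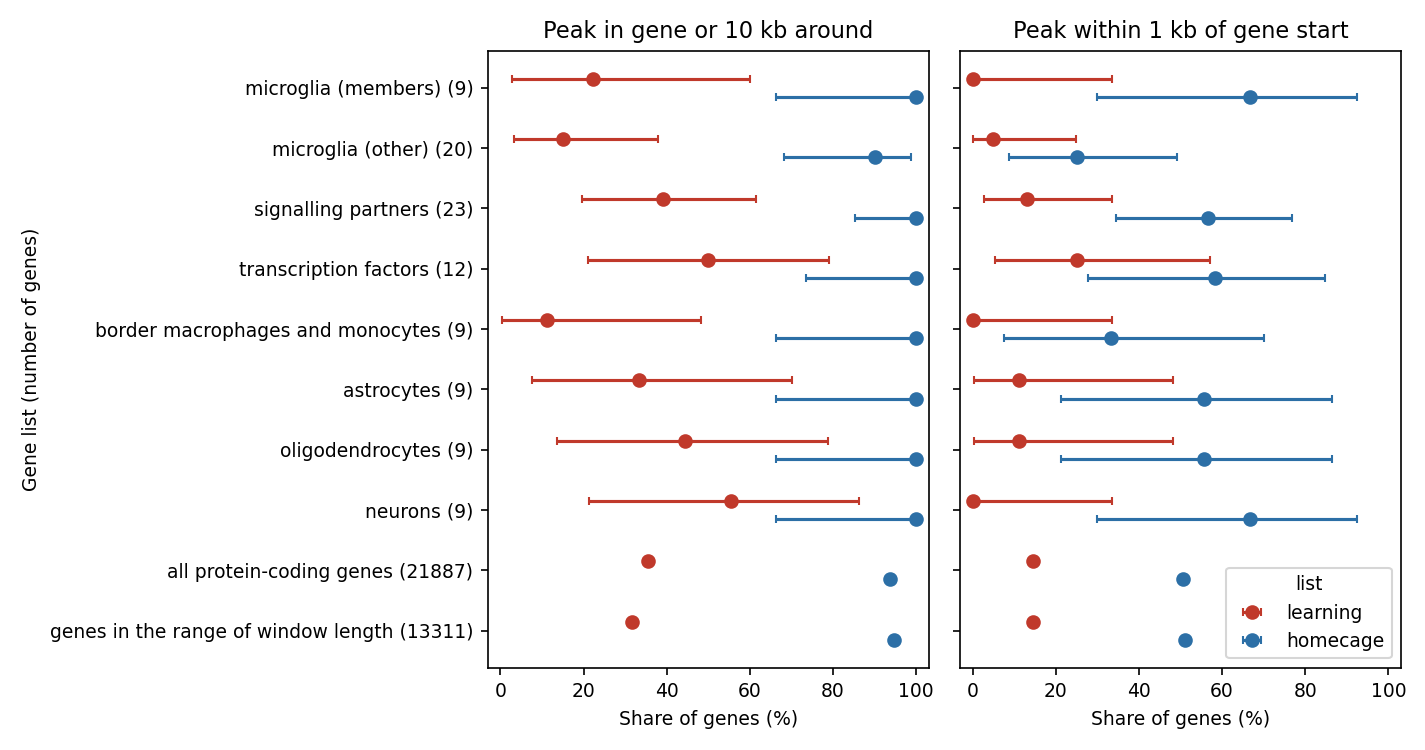
Points show the percent of genes of each list with a learning (red) or homecage (blue) peak, in the gene or within 10 kb (left) and within 1 kb of the start (right), with 95% exact intervals for the gene lists (number of genes in brackets). The microglia markers stand at 22.2 and 100% on the left and at 0 and 66.7% on the right, and their intervals overlap those of the other lists.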

How the data were processed

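The authors deposited 1 peak list per pan-Kcr ChIP-seq library, with the chromosome, start, end (bp) and name of each peak, and no count, score or depth. Per the deposited peak names, calling used broad peaks with a p-value limit of 0.01. The submitters' processing notes name mm10 (GRCm38), Trimmomatic, BWA and MACS2, without versions or settings. Whether input was used in calling is not given in the sources used here. The 2 input and 8 single-nucleus libraries were not analysed here.

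Peaks on chromosomes 1 to 19, X and Y were intersected with RefSeq GRCm38.p6 gene bodies extended by 10 kb. Positions are 1-based, and an overlap of 1 bp or more made peaks shared. Strand came from the RefSeq promoter table, which matched 17492 of 21887 protein-coding genes and 6 of 9 members. All 100 symbols of the gene lists matched. Intervals are 95% exact, treat genes or peaks as independent and cover counting error only. The members, lists and named genes were chosen with earlier results of these data known. Named genes are the 9 members, their protein-coding neighbours and, from each other list, at most the 4 genes with the widest learning peak and the 2 with the widest homecage peak. From the lists of other brain cells, the learning genes alone are named, and the neuronal genes are given as counts. Overlap, distance and merging functions were tested on simulated peaks. Computation used matplotlib 3.10.9, scipy 1.17.1, pandas 2.3.3 and numpy 2.4.6 under Python 3.11.15.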

Additional observations from a re-analysis of the deposited data

How the results depend on the processing

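No paired analysis was possible because the lists come from 1 library per condition, and likewise no replicate could be left out. A stricter peak threshold was not run, since no peak has a strength value. Of 53 recomputed counts, 30 stayed within 1.5 times the reported count and 23 did not. Some of the 30 could not move. A width filter cannot raise a count of 0, as for learning peaks at the start, and a wider window cannot lower 9 of 9. The shares over all genes were not recomputed. With gene bodies alone, members with a learning peak numbered 1, learning peaks 1, members with a homecage peak 5 and homecage peaks 23. With 2 kb on either side, members with a learning peak and learning peaks were again 1 each, and with 25 kb the peaks rose to 5 learning and 61 homecage. With peaks of at least 300 bp, members with a learning peak, learning peaks and shared learning peaks were all 0, and homecage peaks numbered 17. With peaks of at least 500 bp, these 3 learning counts were 0, members with a homecage peak 5, homecage peaks 7 and members with a homecage peak at the start 3. With the homecage list reduced to its 16002 widest peaks, at least 884 bp wide, members with a homecage peak numbered 1, homecage peaks 2 and members with one at the start 0. Shared learning peaks numbered 0 when reciprocal overlap of 50% was required and 2 when peaks within 500 bp counted. The count of members with a learning peak at the start was also 0 with 3 kb at the start and at either gene end.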
